A study of Mus musculus with 32 samples.

Results

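Population A was compared with population C of tumour-associated macrophages from double-deficient hosts, mice that lack TNFR1 everywhere and Myd88 where Tie2-Cre is active. The 4 arrays of these hosts, 2 for each population, were chosen by the host named in their titles, out of 32 arrays in the series. The tumours were grown from EG7, a transplantable mouse thymoma line of T lymphocyte origin, so the tumour cells themselves carry neither deletion. The groups used were populations A and C from TNFR1-/-; Myd88flox/flox; Tie2-Cre hosts, from TNFR1-/- hosts, from Myd88flox/flox; Tie2-Cre hosts and from WT hosts, with 2 arrays in each of the 8 groups and 100 ng of RNA on each array. Population A was sorted as CD11b+ and Ly6C+ cells without Ly6G or MHC class II, and population C as CD11b+ and MHC class II+ cells without Ly6C. No ages are given in the labels, and they do not say if mates of a group are separate tumours or pooled mice. In double-deficient hosts the mates of each group differed in the sex-linked transcripts Xist and Uty, so they were not repeats of the same RNA. For the other hosts this is not known, so part of the spread behind each p-value may be technical. The question was which of the differences between A and C in WT hosts were lost, kept or new when both signalling routes were absent.

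TNFR1, the receptor encoded by Tnfrsf1a, binds tumour necrosis factor and leads to NF-kB and MAP kinase activity. Myd88 is the adaptor used by most Toll-like receptors and by the receptors of the interleukin-1 family, and it leads to the same kinases by another path. Tie2-Cre is active in endothelium and in blood cells, which include macrophages. In tumours, Ly6C+ monocytes arrive from blood and lose Ly6C as they become MHC class II+ macrophages, which can take on an inflammatory state or the alternatively activated state that interleukin-4 and interleukin-13 induce through STAT6.

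Among the genes called in the test of the A-C difference between double-deficient and WT hosts, the largest differences were those of Ccl17, which encodes a chemokine that draws CCR4+ T cells, and of Mgl2, which encodes a galactose-binding C-type lectin of macrophages and dendritic cells. Both were far higher in C of double-deficient hosts than in any A array. The 250 bases before the start of each gene (RefSeq, GRCm38.p6, both on the plus strand) are shown because these genes moved together, with matches to a STAT6-type motif in capitals. Ccl17 lies at chr8:94810203-94810452 and Mgl2 at chr11:70130107-70130356.
Ccl17: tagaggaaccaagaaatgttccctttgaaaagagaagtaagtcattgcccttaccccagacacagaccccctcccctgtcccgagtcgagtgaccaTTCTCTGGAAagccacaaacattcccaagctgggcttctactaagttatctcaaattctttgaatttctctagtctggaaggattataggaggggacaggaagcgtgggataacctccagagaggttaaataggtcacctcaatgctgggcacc
Mgl2: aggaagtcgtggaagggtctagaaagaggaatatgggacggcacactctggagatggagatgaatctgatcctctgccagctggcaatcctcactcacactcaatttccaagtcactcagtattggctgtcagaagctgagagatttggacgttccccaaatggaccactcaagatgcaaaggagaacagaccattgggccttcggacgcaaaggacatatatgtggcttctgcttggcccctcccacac
The motif searched was TTC and GAA with 4 bases of any kind between them, which reads the same on both strands. It occurs once in the Ccl17 window and not in the Mgl2 window, and 5.85% of 32851 promoter windows of this length hold it. An NF-kB-type motif, GGG and TTTCC with 2 bases between them on either strand, is in neither window and in 1.41% of all windows. A match describes the letters and is no measured binding site.

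Values are log2 signals, so a difference of 1 is a factor of 2. Genes were called where limma's adjusted p was under 0.05, with the spread taken from all 16 sorted arrays and 16524 genes tested. The median standard error of an A-C difference was 0.18, and that of a difference between hosts was 0.26. Array medians lay between 5.31 and 5.5. The 2 A arrays of WT hosts correlated least with each other (r = 0.931, against 0.957 for A and 0.966 for C of double-deficient hosts), and limma's array weights gave them 0.33 where every other group had 0.88 to 1.65. The total calls and the kept, lost and reversed counts that rest on these arrays are therefore also given with array weights. The calls in WT hosts among gene lists, or among genes chosen in single-deficient hosts, were not computed with weights.

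The targeted genes were read first. Myd88 was 7.78 and 8.32 in A of double-deficient hosts, against 10.03 and 9.64 in A of WT hosts (difference -1.78 ± 0.27, adjusted p = 0.0101). In C it was 8.76 and 7.97 in double-deficient hosts, against 9.78 and 9.22 in WT hosts (difference -1.14, adjusted p = 0.129). The arrays of the hosts did not overlap in either population, and the signal did not reach the bottom of the scale. Tnfrsf1a was 7.69 and 8.2 in A and 7.55 and 7.7 in C of double-deficient hosts, against 8.3 and 8.09 in A and 8.55 and 7.81 in C of WT hosts. The Tnfrsf1a values of A overlapped between the hosts. The position of its probes relative to the deleted part was not given, so the TNFR1-/- label was not checked by this signal.

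The sort was visible in the arrays. Ly6c2, which encodes Ly6C, was 12.42 and 12.2 in A, against 9.13 and 8.15 in C of double-deficient hosts. H2-Ab1, a chain of MHC class II, was 9.74 and 10.88 in A, against 12.74 and 12.49 in C. Both follow the gates. The level of H2-Ab1 in A was still well above the array medians. Adgre1, which encodes a surface receptor that marks mouse macrophages, was not called between A and C (1.12 higher in A).

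Within double-deficient hosts 902 genes were called between A and C, 5.46% of those tested. Of these, 288 were higher in A (1.74%) and 614 were lower (3.72%). WT hosts gave 2223 calls (13.5%), of which 583 were higher (3.53%) and 1640 lower (9.92%). With array weights the order of the hosts was turned, with 1428 calls in double-deficient and 301 in WT hosts. When the arrays were quantile-normalized again the split moved to 403 higher and 474 lower in double-deficient hosts, and to 708 higher and 1059 lower in WT hosts. Without the first A array, the first C array or the second C array, double-deficient hosts gave 266, 328 and 289 calls, and without the first C array WT hosts gave 406. Fewer calls in one host thus do not show that the populations lay closer together there. Arrays of A and C did not overlap for 48.4% of the genes in double-deficient and 47.8% in WT hosts, so a lack of overlap alone sets no gene apart. The SD of the A-C difference over all genes was 0.45 in double-deficient and 0.47 in WT hosts.

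The genes with the largest rise in A over C of double-deficient hosts were Retnlg, F5, Ccr3, Pglyrp1, Ly6a2, Alox15, Serpinb2, Adgre4, Gapt and Ly6c2. Retnlg, a resistin-like gene of neutrophils and monocytes, was 11.52 and 10.82 in A, against 4.74 and 5.51 in C (difference 6.04 ± 0.35, adjusted p = 5.93e-07). F5, which encodes coagulation factor V, was 11.93 and 10.56 in A, against 5.79 and 6.34 in C (difference 5.18). All A arrays of both genes lay far above all C arrays. Ccr3, the eotaxin receptor known from eosinophils, was 10.19 and 8.94 in A, against 4.6 and 4.92 in C (difference 4.80 ± 0.42, adjusted p = 2.86e-05). Both C signals of Ccr3 lay below the 40th percentile of their arrays (4.92 and 4.97), so the size of this difference rests on a C signal near background. Alox15, a lipoxygenase of eosinophils and of alternatively activated macrophages, was 12.54 and 11.33 in A, against 7.16 and 8.13 in C (difference 4.29). For F5, Ccr3 and Alox15, the first A array was more than 1 log2 unit above the other, so these levels varied within the group. Serpinb2, an inhibitor of plasminogen activators, and Adgre4, an adhesion receptor of myeloid cells, were higher in A by 4.28 and 4.06. Ly6a2, a gene of the Ly6 family, was steadier, with 10.92 and 11.53 in A, against 6.56 and 7.29 in C. These 10 genes were also called higher in A in WT hosts.

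The largest falls were those of Ccl17, Mgl2, Rnase2a, Ccl22, Ccr7, Plet1, Ccl24, Pdcd1lg2, Plxdc2 and Pltp. Ccl17 was 4.93 and 4.79 in A, against 9.8 and 10.35 in C (difference -5.22 ± 0.31, adjusted p = 6.51e-07). Mgl2 was 5.49 and 5.22 in A, against 10.11 and 10.63 in C (difference -5.01 ± 0.23, adjusted p = 4.48e-08). The A signals of both genes lay near the 40th percentile of all probe sets, which was 5 on both arrays, while every C signal lay more than 4 log2 units above them. Ccl22, whose product shares the receptor CCR4 with that of Ccl17, was 6 and 5.6 in A, against 9.8 and 10.45 in C (difference -4.32). Ccr7, the receptor that leads dendritic cells to lymph nodes, was 6.55 and 6.93 in A, against 10.16 and 10.43 in C (difference -3.56). Rnase2a, an eosinophil-associated ribonuclease also made by alternatively activated macrophages, was 7.71 and 4.28 in A, against 9.59 and 11.32 in C (difference -4.46 ± 0.83, adjusted p = 0.00645). It belongs to a family of near-identical genes whose signals an array may not separate. Its A arrays lay over 3 log2 units apart, and its call was lost without the second C array (adjusted p = 0.0917). Ccl24, an eotaxin, was 8.49 and 7.21 in A, against 9.91 and 11.77 in C (difference -2.99). Pdcd1lg2, which encodes the PD-1 ligand PD-L2, was 6.69 and 6.74 in A, against 9.3 and 9.9 in C. Plxdc2, a membrane protein, and Pltp, the phospholipid transfer protein, were lower in A by similar amounts (-2.82 and -2.80).

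**Figure D1:**
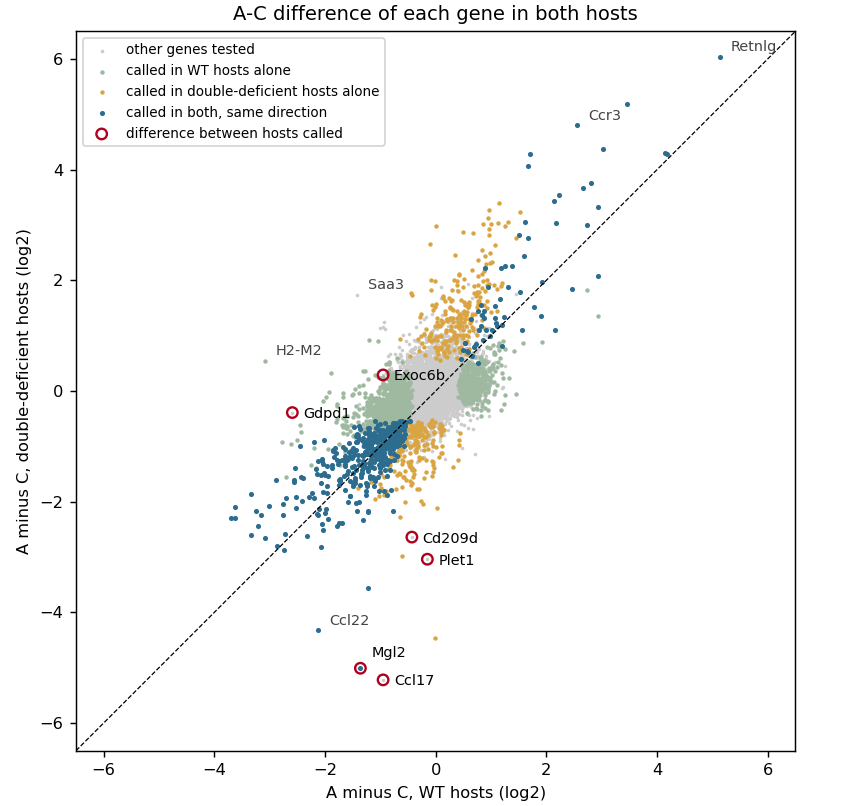
A-C difference of every gene tested in double-deficient hosts (vertical, log2) against WT hosts (horizontal, log2), with colours for the calls and red rings for the 6 genes called in the test of the difference between hosts. Most coloured points keep their side of 0 in both hosts, and Ccl17 and Mgl2 lie far below the dashed line of equal differences.

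Most of the A-C difference of WT hosts kept its direction. Of the 2223 genes called in WT hosts, 1943 (87.4%) had the same sign in double-deficient hosts. Conversely, 849 of the 902 genes called in double-deficient hosts (94.1%) had the same sign in WT hosts. For reference, of the 13870 genes with no call in either host or between them, 8672 also had the same sign in both. The 2 comparisons share no arrays, only the estimate of the spread, and over the genes tested their differences correlated with r = 0.6, where genes are not independent replicates. In all, 470 genes were called in both hosts with the same sign, which is 52.1% of the genes called in double-deficient hosts and 21.1% of those called in WT hosts. Of these, 63 were higher and 407 lower in A, and the median size was 1.12 in double-deficient and 1.14 in WT hosts. The count was 192, 190 and 180 without the first A, the first C or the second C array of double-deficient hosts, 187 without the first C array of WT hosts, and 196 with array weights, and 171 of those 196 were among the 470.

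The firmest of the kept differences were Retnlg, Ly6a2, Alox15, Ly6c2 and Cd24a on the A side, and Plxdc2, Cbr2, Folr2, F7 and C1qa on the C side. Retnlg had the largest A-C difference of these 10 in WT hosts too (5.14), with 9.5 and 9.68 in A, against 4.56 and 4.35 in C. C1qa, a chain of complement C1q made by macrophages, was 7.55 and 7.68 in A, against 10.3 and 10.13 in C of double-deficient hosts (difference -2.60), and its difference was -3.34 in WT hosts. Folr2, the folate receptor of resident-type macrophages, was 7.98 and 7.57 in A, against 10.11 and 10.32 in C of double-deficient hosts (difference -2.44, against -3.21 in WT hosts). Both stayed on the C side without overlap. F7, coagulation factor VII, and Cbr2, a carbonyl reductase, differed by -2.58 and -2.62 in double-deficient hosts, against -2.72 and -2.32 in WT hosts. The differences between hosts were not called for any of these 10 genes.

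The test of the difference itself called 6 genes, 0.0363% of those tested. Gdpd1 and Exoc6b had a positive difference between hosts (0.0121%), and Ccl17, Mgl2, Plet1 and Cd209d a negative one (0.0242%). At an unadjusted p under 0.05 there were 1772 genes (10.7%). A further 1750 genes were called in WT hosts alone and 428 in double-deficient hosts alone, without a call in the test of the difference, and 1472 and 376 of them had the same sign in both hosts. These are counted neither as lost nor as new. Without the second A array of double-deficient or of WT hosts, the test of the difference called 72 and 97 genes. A typical difference between hosts had a 95% interval of ± 0.56 before adjustment for the number of genes tested. The smallest difference called was 1.24, and differences of 3.64 (H2-M2) and 3.16 (Saa3) were not called. With 2 arrays a group, shifts well above 0.56 could therefore go uncalled.

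New A-C differences, against WT hosts, were those of Ccl17, Cd209d and Plet1, and the difference of Mgl2 was kept but larger. The new differences were not particular to double-deficient hosts, since limma called all 3 in TNFR1-/- hosts too. There they were -3.32 for Ccl17 (adjusted p = 3.87e-05), -2.55 for Cd209d (adjusted p = 1.65e-05) and -1.74 for Plet1 (adjusted p = 0.00263). In WT hosts, Ccl17 was 5.22 and 4.83 in A, against 5.99 and 5.96 in C. Those arrays did not overlap, and the A-C difference there just missed a call (-0.95, adjusted p = 0.0573), so Ccl17 counts as new by a narrow margin. The difference between hosts was -4.26 ± 0.44 (adjusted p = 0.00112). Mgl2 in WT hosts was 5.21 and 5.5 in A, against 6.82 and 6.6 in C (difference between hosts -3.66 ± 0.32, adjusted p = 0.000281). These 2 were also the only genes of the 6 that stayed called under every alternative run. Cd209d, a C-type lectin of the DC-SIGN family, was 5.14 and 5.04 in A, against 7.64 and 7.81 in C of double-deficient hosts. In WT hosts it was 5.31 and 5.16 in A, against 5.82 and 5.5 in C (difference between hosts -2.21 ± 0.31, adjusted p = 0.0242). Plet1, a surface protein first described in placenta, was 6.65 and 6.86 in A, against 9.12 and 10.48 in C of double-deficient hosts. Its WT arrays were 7.18 and 6.94 in A, against 7.14 and 7.29 in C, and these overlapped (difference between hosts -2.89 ± 0.44, adjusted p = 0.0436). Of these 3, 1 stayed new with the replicate block and 0 without the first A array of WT hosts.

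Lost differences were those of Gdpd1 and Exoc6b. Gdpd1, a phosphodiesterase that acts on lysophospholipids, was 6.47 and 6.11 in A, against 6.67 and 6.69 in C of double-deficient hosts (difference -0.39, adjusted p = 0.476). In WT hosts it was 5.72 and 5.8 in A, against 8.34 and 8.36 in C (difference -2.59 ± 0.24, adjusted p = 4.98e-05). The difference between hosts was 2.20 ± 0.34 (adjusted p = 0.0436), and it came mostly from C, which was lower by 1.67 in double-deficient than in WT hosts. Exoc6b, a subunit of the exocyst that tethers secretory vesicles, was 7.65 and 7.52 in A, against 7.31 and 7.28 in C of double-deficient hosts, and 6.37 and 6.61 in A, against 7.5 and 7.38 in C of WT hosts. Its 2 WT A arrays were the low ones, and every other array lay between 7.18 and 7.65. Its difference between hosts was 1.24 ± 0.19 (adjusted p = 0.0482). With array weights Cd209d, Plet1, Gdpd1 and Exoc6b were no longer called (adjusted p = 0.151, 0.412, 0.412 and 0.278), and leaving out the first C array of WT hosts also ended these calls (adjusted p = 0.0693, 0.246, 0.246 and 0.246).

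**Figure D2:**
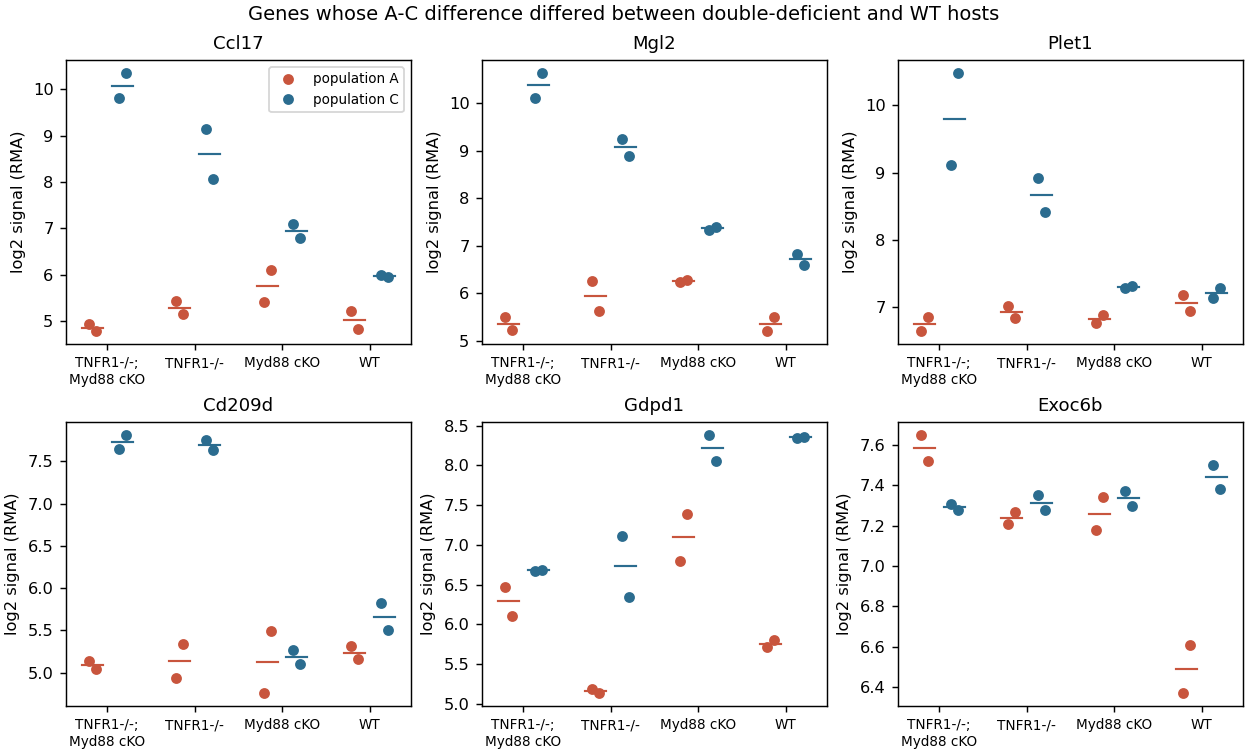
Log2 signal of the 6 genes called in the test of the difference between hosts, with one point for each array, a bar for the mean of 2 arrays, and hosts along the horizontal axis. For Ccl17, Mgl2, Plet1 and Cd209d the C points of double-deficient hosts stand above those of WT hosts, and for Exoc6b the A points of WT hosts stand low.

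A single gene was called in both hosts with opposite signs, and it was named after its values were seen. Saa3, an acute-phase protein induced by inflammatory signals, was 7.92 and 9.23 in A, against 7.35 and 6.33 in C of double-deficient hosts (difference 1.74 ± 0.43, adjusted p = 0.0311). In WT hosts it was 9.69 and 8.48 in A, against 10.18 and 10.84 in C (difference -1.42, adjusted p = 0.0431). The C arrays were the ones that differed between hosts. The test of the difference itself was not called (3.16 ± 0.61, adjusted p = 0.112). Saa3 no longer had opposite calls with array weights, in the 8 arrays of these hosts alone, after renewed quantile normalization, with the replicate block, and in 5 of the 8 fits that left out an array: the second A or second C array of double-deficient hosts, the second A array of WT hosts, or either C array of WT hosts.

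The 5 positive differences next below the threshold were those of H2-M2, Gclm, Trappc6b, Nae1 and Yaf2, with adjusted p from 0.0615 to 0.102. H2-M2, a nonclassical class I gene, was 7.87 and 7.09 in A, against 6.8 and 7.06 in C of double-deficient hosts, and 6.78 and 6.52 in A, against 9.29 and 10.18 in C of WT hosts. The difference between hosts was 3.64 ± 0.59. Gclm, a subunit of the enzyme that starts glutathione synthesis, had A-C differences of 0.21 in double-deficient and -1.22 in WT hosts. None of these is counted as lost.

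The population in which these genes moved was read from double-deficient against WT hosts within A and within C. In C, 51 genes were called (0.309%), 29 higher (0.176%) and 22 lower (0.133%) in double-deficient hosts. Renewed quantile normalization turned this split to 19 higher and 34 lower, and median centring gave 29 and 14. Mgl2 was higher in C by 3.66 (adjusted p = 3.09e-06) and differed by 0.00 in A, with a 95% interval from -0.48 to 0.48. Ccl17 was higher in C by 4.10 (adjusted p = 2.31e-05), and its difference in A was -0.16. Plet1 and Cd209d were higher in C by 2.58 and 2.06, and neither was called in A. Exoc6b was the opposite case, called in A (1.1 higher in double-deficient hosts, adjusted p = 0.00705) and not in C (-0.14). In A, 950 genes were called (5.75%), 715 higher (4.33%) and 235 lower (1.42%), but none with array weights or when the 8 arrays of these 2 hosts were fitted alone, where 4095 had been at an unadjusted p under 0.05 in the fit of all 16 arrays. Without the first A array of double-deficient hosts 2 genes were called in A, and without the first A array of WT hosts 2345. The split of higher and lower calls in A was 452 and 294 after renewed quantile normalization and 1008 and 101 after median centring.

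Alternative activation genes lay mostly on the C side. Of 30 genes tested on this list, 20 fell and 1 rose in A relative to C of double-deficient hosts, with a median of -1.48, where the median over all genes was 0.00. In WT hosts 10 fell and 1 rose, with a median of -0.53. In TNFR1-/- hosts 21 fell and 1 rose (median -1.51), so the count of double-deficient hosts was not particular to them. In Myd88flox/flox; Tie2-Cre hosts 2 fell and 1 rose (median -0.58). Calls over all genes, in both directions together, were 12.6% in TNFR1-/- and 1.97% in Myd88flox/flox; Tie2-Cre hosts. Over all genes, 3.72% fell and 1.74% rose in A of double-deficient hosts, against 9.92% and 3.53% in WT hosts. The list was chosen with earlier results of these arrays known, so its count is no independent evidence of its direction. Within C, 10 of the 30 were called higher in double-deficient than in WT hosts and none lower, against 0.176% and 0.133% of all genes. Rnase2a was 9.59 and 11.32 in C of double-deficient hosts, against 4.57 and 4.2 in C of WT hosts. Retnla, a resistin-like gene induced by interleukin-4, was 10.18 and 11.87 in C of double-deficient hosts, against 6.59 and 7.36 in C of WT hosts. Retnla was also higher in A of double-deficient hosts (10.76 and 8.84, against 7.25 and 7.03 in A of WT hosts), so its A-C difference was not called in double-deficient hosts (-1.23, adjusted p = 0.302). Irf4, a transcription factor of alternative activation and of dendritic cells, was 5.04 and 5.29 in A, against 6.82 and 7.06 in C of double-deficient hosts.

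Other genes of the list had A-C differences of like size in both hosts. Arg1, arginase 1, was 9.03 and 8.32 in A, against 10.32 and 11.51 in C of double-deficient hosts (difference -2.24), and its difference was -2.75 in WT hosts. Mrc1, the mannose receptor, differed by -2.66 in double-deficient and by -3.08 in WT hosts. Both were thus on the C side in each host, with no call in C between hosts. Alox15 was the one member that rose, by 4.29 in double-deficient and 4.18 in WT hosts. Socs1 and Cish, feedback inhibitors of cytokine signalling, were not called between A and C in either host.

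**Figure D3:**
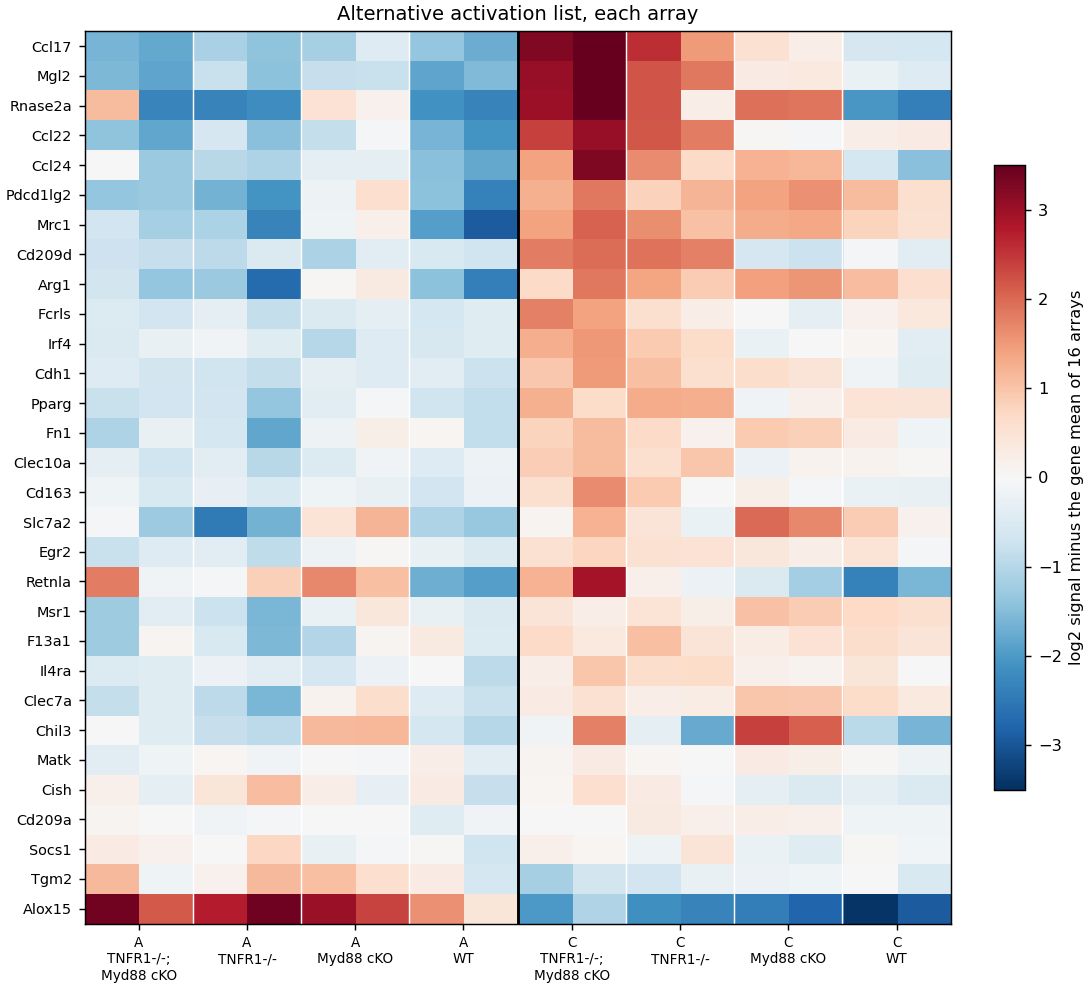
Log2 signal of the 30 alternative activation genes tested, minus the mean of each gene over 16 arrays, with population A left of the black line and C right of it, 2 arrays for each host. The red block of Ccl17, Mgl2, Rnase2a, Ccl22 and Ccl24 in C is deepest in double-deficient hosts, and Alox15 is high in every A array.

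Maturation markers lay on the C side, where 3.72% of all genes fell in A of double-deficient and 9.92% in A of WT hosts. Of 23 mature macrophage markers tested, 16 fell and none rose in A of double-deficient hosts (median -1.50), and 17 fell in WT hosts (median -2.14). Axl, a receptor for apoptotic cells, was 6.99 and 7.39 in A, against 9.61 and 9.12 in C of double-deficient hosts (difference -2.17). Maf, a transcription factor of macrophages, differed by -1.57, and its A and C arrays did not overlap. Of 13 genes of MHC class II presentation, which the sort gate chose in part, 10 fell in double-deficient hosts (median -1.32) and 7 in WT hosts (median -0.78). H2-DMb2, a chaperone of peptide loading, was 5.44 and 5.88 in A, against 8.04 and 7.94 in C of double-deficient hosts. Ciita, the transactivator of class II genes, was lower in A by 1.25 there, and in WT hosts its difference was -0.69 (adjusted p = 0.0743).

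Of 16 dendritic cell genes tested, 7 fell in A of double-deficient hosts and 2 in A of WT hosts, with medians of -0.74 and -0.14. TNFR1-/- hosts were like double-deficient hosts, with 8 that fell (median -0.68), where 12.6% of all genes were called in either direction. In Myd88flox/flox; Tie2-Cre hosts, where 1.97% were called, none fell (median -0.14). Over all genes 3.72% fell in double-deficient and 9.92% in WT hosts, so the 2 in WT hosts are near that share. None of the 16 was called in the test of the difference. Within C, 5 of the 16 were higher in double-deficient than in WT hosts, Ccr7, Batf3, Irf4, Kmo and Fscn1, against 0.176% of all genes. Ccr7 was 10.16 and 10.43 in C of double-deficient hosts, against 8.35 and 8.44 in C of WT hosts. Kmo, an enzyme of tryptophan breakdown, was 8.59 and 8.49 in C of double-deficient hosts, against 7.46 and 6.78 in C of WT hosts. Other defining genes of dendritic cells were not called between A and C: Zbtb46 (-0.24), Flt3 (-0.74), Xcr1 (0.02) and Irf8 (-0.93). The mean level of the list was 7.01 and 7.09 in C of double-deficient hosts, against 6.5 and 6.41 in C of WT hosts. Fewer cells of a type and less RNA per cell cannot be told apart in these bulk samples, and the part of dendritic cells in the C differences was not tested.

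On the A side stood markers of other cells. Of 11 eosinophil and mast cell markers tested, 7 rose in A of double-deficient hosts and none fell (median 1.82), against 3 risers in WT hosts (median 0.81). TNFR1-/- hosts also gave 7 risers (median 1.76), where 2.48% of all genes rose. Myd88flox/flox; Tie2-Cre hosts gave 5 (median 1.13), where 1.97% of all genes were called in either direction. These rises were thus not particular to double-deficient hosts. Over all genes, 1.74% rose in double-deficient and 3.53% in WT hosts. Siglecf, a sialic acid receptor of eosinophils, was 10.26 and 8.55 in A, against 5.79 and 5.92 in C of double-deficient hosts, and 8.2 and 7 in A, against 5.01 and 5.75 in C of WT hosts. Il5ra, the interleukin-5 receptor, was 7.67 and 6.64 in A, against 4.72 and 5 in C of double-deficient hosts. Epx and Prg2, which encode eosinophil granule proteins, were not called (0.51 and 1.82), and Mcpt4 and Fcer1a were below the 40th percentile on all 4 arrays. The mean level of the list was 8.08 and 7.01 in A and 5.43 and 5.68 in C of double-deficient hosts, against 6.82 and 6.27 in A and 5.28 and 5.31 in C of WT hosts. The first A array of double-deficient hosts was the higher of the pair for this list and also for Ccr3, F5, Alox15 and Serpinb2. What part these cells had in those differences was not tested.

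Transcripts of T lymphocytes, fibroblasts and neutrophils were also higher in A. Over all genes, 1.74% rose in double-deficient and 3.53% in WT hosts. Of 13 T lymphocyte and EG7 line markers, 6 rose in double-deficient hosts (median 0.68) and 2 in WT hosts (median 0.17). Cd3e, a chain of the T cell receptor complex, was 8.55 and 8.64 in A, against 6.78 and 7.31 in C of double-deficient hosts, and 7.32 and 7.16 in A, against 6.33 and 6.94 in C of WT hosts. Trap1a and Dntt were below the 40th percentile on all 4 arrays of double-deficient hosts. Of 11 fibroblast markers, 7 rose in double-deficient hosts (median 1.02) and 5 in WT hosts (median 0.53). Dcn, the matrix protein decorin, was 7.77 and 8.45 in A, against 4.86 and 5.29 in C of double-deficient hosts. In TNFR1-/- hosts, where 2.48% of all genes tested were called higher in A, no gene of either list was. Of 20 neutrophil markers, 6 rose in double-deficient hosts (median 0.44) and 8 in WT hosts (median 0.68). S100a9 did not separate the populations (0.00), and S100a8 and Camp were below the 40th percentile on all 4 arrays, while Mmp9, a gelatinase, was 10.07 and 8.48 in A, against 6.65 and 5.92 in C.

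**Figure D4:**
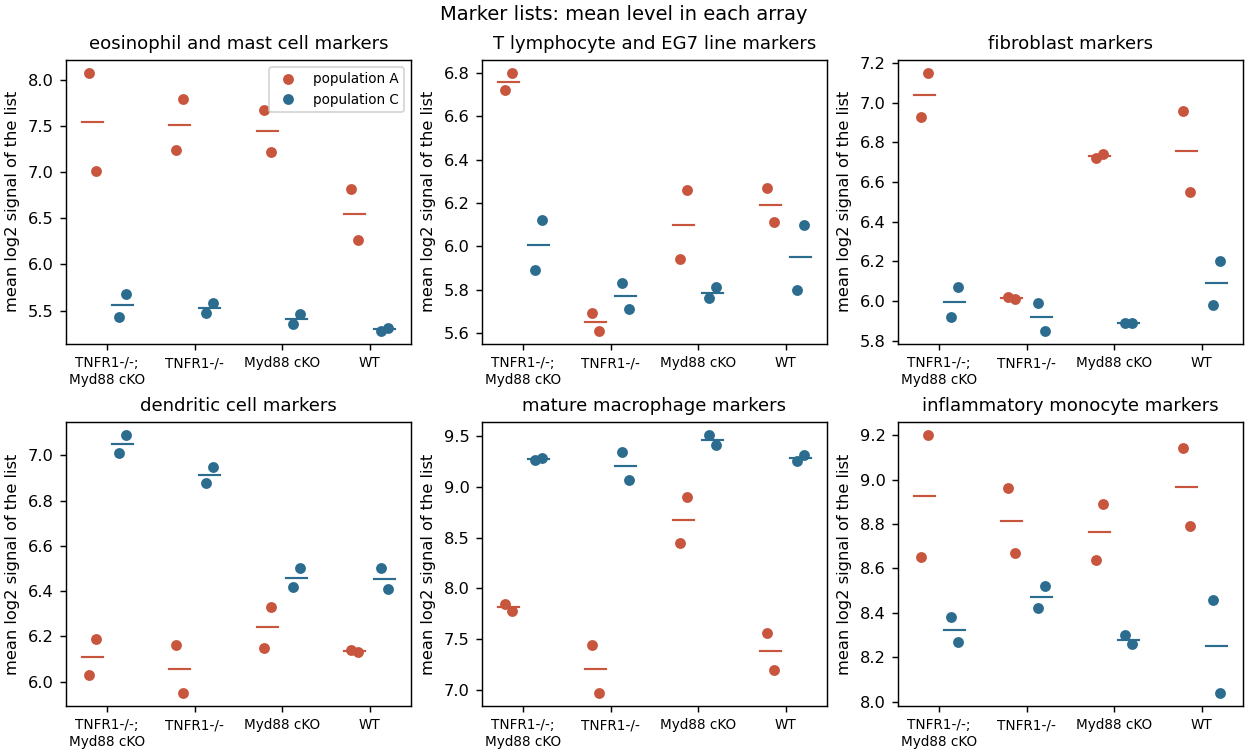
Mean log2 signal of 6 marker lists on each array, by host and population, with a bar for the mean of 2 arrays. Eosinophil, T lymphocyte and fibroblast lists stand higher in A than in C of double-deficient hosts, and the dendritic cell list is highest in C of double-deficient and TNFR1-/- hosts.

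Inflammatory genes divided. Of 30 inflammatory cytokines and chemokines tested, 7 fell and 2 rose in A of double-deficient hosts (median -0.26), against 11 that fell and none that rose in WT hosts (median -0.40). Over all genes, 3.72% fell and 1.74% rose in A of double-deficient hosts, against 9.92% and 3.53% in WT hosts. The 4 chemokines named next are all among those that fell. Ccl7, a ligand of CCR2, was 8.43 and 8.99 in A, against 11.08 and 11.13 in C of double-deficient hosts (difference -2.40, and -2.06 in WT hosts). Ccl12, another CCR2 ligand, differed by -2.38, and -1.70 in WT hosts. Cxcl1, which draws neutrophils, was 5.56 and 5.6 in A, against 7.31 and 6.67 in C of double-deficient hosts. Ccl8 was 9.22 and 8.2 in A, against 10.5 and 11.52 in C of double-deficient hosts, and 5.98 and 6.72 in A, against 9.9 and 10.19 in C of WT hosts. Of these 4 chemokines none was called in the test of the difference.

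Genes of NF-kB signalling and of its upstream receptors are read against the 5.46% of all genes called in double-deficient and 13.5% in WT hosts. Of 29 NF-kB targets tested, 1 rose and 3 fell in double-deficient hosts (median -0.30), and 1 fell in WT hosts (median -0.15). Gpr84, a receptor for medium-chain fatty acids, was 6.43 and 7.09 in A, against 5.35 and 5.29 in C of double-deficient hosts, and 8.06 and 7.9 in A, against 8.1 and 7.55 in C of WT hosts. Its level was lower in double-deficient than in WT hosts in both populations, by 1.22 in A and 2.50 in C. Gpr84 was also low in TNFR1-/- hosts, with 5.46 and 5.52 in A and 5.75 and 5.77 in C. In Myd88flox/flox; Tie2-Cre hosts it was 7.24 and 7.55 in A and 7.65 and 7.83 in C. Tnip3 and Cd83 fell in A by 1.73 and 1.56 in double-deficient hosts. Of 31 genes of the Toll-like, interleukin-1 and TNF receptor pathways, 4 fell in double-deficient hosts, Tlr3, Tlr4, Tlr8 and Ly96, and 9 in WT hosts. Tlr8, a sensor of RNA, was 6.99 and 7.7 in A, against 8.9 and 8.59 in C of double-deficient hosts.

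Metabolic, matrix, complement and fusion genes lay mostly on the C side in both hosts. No member of these 4 lists was called in the test of the difference. Over all genes, 3.72% fell and 1.74% rose in A of double-deficient hosts, against 9.92% and 3.53% in WT hosts. Among 18 genes of lipid and cholesterol handling, 8 fell and 1 rose in double-deficient hosts (median -0.77), and 11 fell in WT hosts (median -0.84). Lpl, lipoprotein lipase, differed by -2.39, and Fabp5, a fatty acid binding protein, by -2.08. Of 27 genes of matrix remodelling and angiogenesis, 9 fell and 3 rose (median -0.85), and 12 fell in WT hosts (median -0.63). Igf1 was 7.59 and 7.37 in A, against 9.11 and 9.12 in C of double-deficient hosts. Of 13 complement genes, 7 fell and 2 rose (median -0.86), and 8 fell and 1 rose in WT hosts (median -0.97), and Serping1, the C1 inhibitor, was 7.16 and 7.85 in A, against 4.91 and 5.57 in C of double-deficient hosts. Of 14 osteoclast-like and vacuolar pump genes, 7 fell and 2 rose (median -1.02), and 7 fell in WT hosts (median -0.55), with Dcstamp, needed for macrophage fusion, at 5.03 and 5.36 in A, against 6.64 and 6.58 in C of double-deficient hosts.

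Cell cycle, hypoxia and endothelial lists held no A-C call in double-deficient hosts, where 5.46% of all genes were called. The other lists here held calls on both sides, except the interferon-gamma and B lymphocyte lists, whose calls were lower in A only. None of 27 cell cycle genes was called between A and C of double-deficient hosts (median -0.02). Within A, 13 of them were called higher in double-deficient than in WT hosts (median 0.67), against 4.33% of all genes. With array weights no gene was called within A. Within C none of the 27 was called between these hosts (median 0.36). None of 18 genes of hypoxia and glycolysis was called between A and C of double-deficient hosts (median -0.20). In WT hosts, where 9.92% of all genes fell, 7 of the 18 fell (median -0.73). None of the 18 was called in the test of the difference between these hosts, so none is counted as lost. Vegfa had A-C differences of 1.13 in double-deficient hosts and -1.01 in WT hosts, and neither was called. Of 23 type I interferon genes 2 rose and 1 fell (median 0.12), and of 21 interferon-gamma genes 3 fell (median -0.01). Inflammatory monocyte markers gave 5 risers and 1 that fell of 16, with Plac8 at 8.78 and 9.57 in A, against 7.54 and 7.14 in C. Ly6c2, which the sort gate chose, is among the 5 risers, so this count was set in part by the sort. Patrolling monocyte markers gave 4 risers and 1 that fell of 13, and Ace was 6.95 and 8.1 in A, against 5.5 and 5.38 in C. Ccr2, the receptor by which monocytes leave the marrow, was not called (-0.66). None of 11 endothelial markers was called (median 0.21). B lymphocyte markers gave 1 that fell of 6 (Cd79b, -1.34), and natural killer cell markers 2 risers and 2 that fell of 7, with Gzmb at 5.92 and 6.96 in A, against 4.26 and 4.16 in C.

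**Figure D5:**
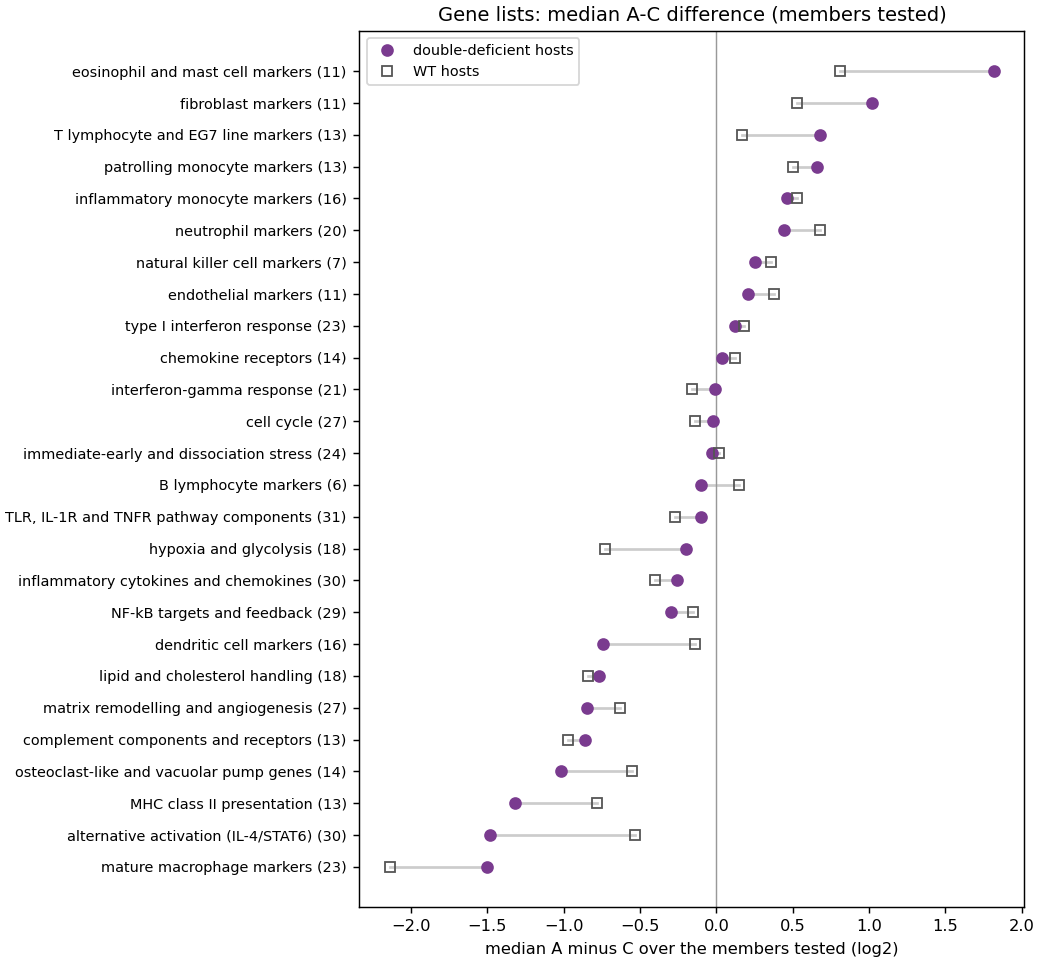
Median A-C difference (log2) over the members tested of each gene list, with a filled circle for double-deficient and an open square for WT hosts, and the number of members tested in brackets. In double-deficient hosts eosinophil markers lie farthest to the A side, and alternative activation and mature macrophage genes farthest to the C side.

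In C, the 4 genes with larger or new differences were next highest in TNFR1-/- hosts. In TNFR1-/- hosts 2086 genes were called between A and C (12.6%), and in Myd88flox/flox; Tie2-Cre hosts 326 (1.97%). Ccl17 in C was 9.8 and 10.35 in double-deficient hosts, 9.14 and 8.07 in TNFR1-/- hosts, 7.1 and 6.8 in Myd88flox/flox; Tie2-Cre hosts and 5.99 and 5.96 in WT hosts. Mgl2 in C was 10.11 and 10.63 in double-deficient hosts, 9.24 and 8.89 in TNFR1-/- hosts, 7.33 and 7.4 in Myd88flox/flox; Tie2-Cre hosts and 6.82 and 6.6 in WT hosts. Both genes kept this order of hosts without overlap. Cd209d in C was 7.64 and 7.81 in double-deficient hosts and 7.75 and 7.63 in TNFR1-/- hosts, against 5.27 and 5.1 in Myd88flox/flox; Tie2-Cre hosts, so the first 2 hosts overlapped.

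No gene was called in the test of the A-C difference between double-deficient and TNFR1-/- hosts in limma, where 729 had an unadjusted p under 0.05 (4.41%) and array weights gave 14 calls. For Ccl17 that difference was -1.90 (95% interval -2.84 to -0.96, adjusted p = 0.301), and for Mgl2 -1.89 (-2.57 to -1.21, adjusted p = 0.102). For Cd209d it was -0.08 (-0.74 to 0.57). Against Myd88flox/flox; Tie2-Cre hosts 9 genes were called (0.0545%), and all 9 had a negative difference: Ccl17, Mgl2, Ccl22, Ccr7, Cd209d, Stat4, Cdh5, Fcrls and Zfp366. Ccl22 in C was 9.8 and 10.45 in double-deficient hosts, against 7.44 and 7.35 in Myd88flox/flox; Tie2-Cre hosts (difference of A-C between hosts -3.90, adjusted p = 0.00212). For Cdh5, the endothelial cadherin, it was A that differed, with 5.9 and 6.13 in double-deficient hosts, against 8.04 and 7.84 in Myd88flox/flox; Tie2-Cre hosts. Stat4, which transmits interleukin-12 signals, was 8.23 and 8.55 in C of double-deficient hosts, against 6.1 and 6.45 in C of Myd88flox/flox; Tie2-Cre hosts.

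Genes chosen in the single-deficient hosts were then read in double-deficient and WT hosts. The 8 arrays that chose them are in neither A-C difference, but they share in the estimate of the spread, and each of their hosts carries 1 of the deletions of double-deficient hosts and none is WT. The mean A-C difference of the single-deficient hosts called 832 genes higher and 2252 lower in A (18.7% of genes tested in all). The 832 had a median of 0.66 in double-deficient hosts, where 784 (94.2%) had the same sign and 242 (29.1%) were called. In WT hosts their median was 0.31, with 686 (82.5%) of the same sign and 117 (14.1%) called. The 2252 had a median of -0.50 in double-deficient hosts, with 2181 (96.8%) of the same sign and 569 (25.3%) called, against a median of -0.63 in WT hosts, with 2183 (96.9%) of the same sign and 1100 (48.8%) called. The size was larger in double-deficient than in WT hosts for 607 of the 832 (73%) and for 878 of the 2252 (39%). Of the genes in both sets, Ccl17, Cd209d, Gdpd1, Mgl2 and Plet1 passed the test of the difference, all of them among the 2252.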

How the data were processed

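Expression was measured on 16 Affymetrix Mouse Gene 2.0 ST arrays of sorted cells. The other 16 arrays of the series, on another chip, were not used. The authors deposited 1 log2 signal for every probe set, from RMA, and the submitters' processing notes name Affymetrix Expression Console 1.1. RMA is made to put arrays processed together on one distribution, which removes a global shift in RNA content. Whether the 16 arrays were processed together is not stated, and their medians and spreads differ slightly, so they were also quantile-normalized again. A single gene symbol was annotated for 23521 of the 41345 probe sets, several for 1814 and none for 16010, and Entrez identifiers tied 23328 to genes of GRCm38.p6. The probe set of highest mean stood for each of 22180 genes. Genes above the 40th percentile of probe sets on at least 2 arrays were tested, which left 16524.

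Groups were fitted together with limma 3.58.1 (lmFit, eBayes; R 4.3.3) as 8 groups of 2, which left 8 residual degrees of freedom. Tests were two-sided, and Benjamini-Hochberg adjustment ran over the whole table of tested genes. Values after ± are standard errors. The fit was tested on simulated data. Kept means called with the same sign in both hosts. Lost means called in WT hosts, not in double-deficient hosts, and called in the test of the difference, and new is the converse. The number of arrays limits the precision.

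The members and the 29 gene lists were chosen with earlier results of these data known. The text names the 10 largest rises and 10 largest falls without overlap between the populations, the genes called in the tests of the difference (with the 5 of smallest p where under 3 of a sign were called), the 5 firmest kept in each direction, and the firmest called members of each list, at most 4, or its 2 of lowest p where it held no call. Further list members are named as examples, chosen after their values were seen. Genes known only by a predicted name are counted only. Lists of red blood cell and sex-linked transcripts gave no called gene in double-deficient hosts (medians 0.17 and -0.31 over 2 and 4 genes tested). Of 14 chemokine receptors 2 rose and 1 fell there (median 0.04). Of 24 genes of immediate-early response and dissociation stress 2 fell (median -0.03). Over all genes, 1.74% rose and 3.72% fell.

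Equal replicate numbers occur in all groups. The correlation of the deviations of A and C arrays of one number was -0.20 in double-deficient, 0.03 in TNFR1-/-, 0.03 in Myd88flox/flox; Tie2-Cre and 0.24 in WT hosts, so the numbers were not taken as pairs. Xist was 10.22 and 5.92 in A, against 5.19 and 10.44 in C of double-deficient hosts. Uty, a gene of the Y chromosome, went the other way, with 3.75 and 5.83 in A, against 6.74 and 3.61 in C. Both the arrays of one number and the mates of a group thus differ in these transcripts. Alternatives were other filters, probe set means, normalizations, variance settings, array weights, fewer arrays, replicate blocks and leaving out each array.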

Additional observations from a re-analysis of the deposited data

Results flagged for a closer look

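The A-C differences of 6 genes differed between double-deficient and WT hosts by the test of the difference: Ccl17 (-4.26), Mgl2 (-3.66), Plet1 (-2.89), Cd209d (-2.21), Gdpd1 (2.20) and Exoc6b (1.24). A further set differed between double-deficient and Myd88flox/flox; Tie2-Cre hosts by the same kind of test: Ccl17 (-4.03), Mgl2 (-3.91), Ccl22 (-3.90), Ccr7 (-2.94), Cd209d (-2.58), Stat4 (-2.03), Cdh5 (-1.98), Fcrls (-1.90) and Zfp366 (-1.55). Values are log2 differences, A minus C in double-deficient hosts less A minus C in the other host. Both sets share the arrays of double-deficient hosts, so a gene in both is no repeat of the result. Groups of 2 arrays were too small to look for a single array that stands apart.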

How the results depend on the processing

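Without one array at a time, calls between A and C ranged from 266 to 1276 in double-deficient hosts (266 without the first A array, 328 and 289 without the first and second C arrays) and from 406 to 3429 in WT hosts (406 without the first C array, 3429 without the first A array). The test of the difference between these hosts ranged from 2 to 97 (72 without the second A array of double-deficient hosts, 97 without the second A array of WT hosts), kept genes from 180 to 682, lost from 0 to 75, new from 0 to 39 and reversed from 0 to 7. Calls in the difference from TNFR1-/- hosts ranged from 0 to 5 and from Myd88flox/flox; Tie2-Cre hosts from 8 to 15, and double-deficient against WT hosts gave 2 to 2345 calls in A and 7 to 69 in C.
With array weights the calls were 1428 for A against C in double-deficient, 3197 in TNFR1-/-, 1142 in Myd88flox/flox; Tie2-Cre and 301 in WT hosts, the differences from TNFR1-/-, Myd88flox/flox; Tie2-Cre and WT hosts gave 14, 21 and 2, double-deficient against WT hosts gave 0 in A, and 196 genes were kept, 0 lost and 0 reversed. The 8 arrays of double-deficient and WT hosts alone gave 501 and 875 calls, 0 in A and 20 in C between hosts, 243 kept, 1 lost, 1 new and 0 reversed, and the 4 arrays of double-deficient hosts alone gave 394; the last 2 fits have fewer samples. Renewed quantile normalization gave 3 differences from WT hosts, 1 lost, 1 new and 0 reversed. Median centring gave 2 reversed. A filter at the 60th percentile gave 14 differences from Myd88flox/flox; Tie2-Cre hosts, 1 lost and 2 reversed, and a trended robust variance gave 1 lost. The replicate block gave 3 differences from WT hosts, 0 lost, 1 new and 2 reversed. Blocking with the numbers crossed in double-deficient hosts, chosen after seeing the data, gave 14, with 6 new and 2 reversed. For Cd209d, Gdpd1 and Exoc6b the block ended the call (adjusted p = 0.0717, 0.0914 and 0.117), and ended none for the differences of Ccl17, Mgl2 and Plet1 or for the 20 largest A-C differences of double-deficient hosts; Saa3 no longer had opposite calls. The cause of these changes was not tested. Renewed quantile normalization also moved the split of higher and lower calls to 694 and 1124 in TNFR1-/- hosts, 213 and 98 in Myd88flox/flox; Tie2-Cre hosts, and, for double-deficient against WT hosts, 452 and 294 in A and 19 and 34 in C, and median centring moved it to 280 and 2086 in WT hosts and, between hosts, to 1008 and 101 in A and 29 and 14 in C. Mgl2 and Ccl17 kept the call of their difference in every setting run, and no value of these 20 genes or of the 6 genes called between hosts changed its sign. Counts did change their order: array weights turned that of double-deficient and WT hosts, and turned the split in Myd88flox/flox; Tie2-Cre hosts, from more higher calls to 428 higher and 714 lower. Signals near the 40th percentile, such as Ccl17 and Mgl2 in A and Ccr3 in C, were not told apart from background here.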

Other observations

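Genes other than those described above moved within a single population. The 8 largest called rises and falls without overlap were listed for each population after the values were seen. In C of double-deficient hosts, against C of WT hosts, Acod1, which makes itaconate in inflammatory macrophages, was 7.91 and 6.46, against 10.48 and 10.28 (difference -3.20, adjusted p = 0.0013). Fpr2, a receptor for formyl peptides and serum amyloid, was 6.26 and 5.77 in C of double-deficient hosts, against 9.31 and 8.9 in C of WT hosts (difference -3.09). Clec4e, the receptor Mincle, was 9.4 and 8.03 in C of double-deficient hosts, against 11.27 and 11.26 in C of WT hosts (difference -2.55). Jag1, a Notch ligand, was 4.57 and 4.44 in C of double-deficient hosts, against 6.85 and 6.48 in C of WT hosts. All 4 were lower in both C arrays of double-deficient hosts, and none was called in A, where the differences were -0.43, -0.93, -1.02 and -0.28.

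In A of double-deficient hosts, Il13, a ligand of the alternative activation pathway, was 10.78 and 9.18, against 7.48 and 7.58 in A of WT hosts (difference 2.45, adjusted p = 0.0267). Tnf was 8.36 and 9.81 in A of double-deficient hosts, against 11.17 and 10.78 in A of WT hosts (difference -1.89, adjusted p = 0.0197). Nlrp3, the inflammasome sensor, was 6.21 and 7.55, against 8.68 and 8.05 in A of WT hosts (adjusted p = 0.0484). No gene of this comparison within A was called with array weights. In A of TNFR1-/- hosts Il13 was 9.63 and 11.13, Tnf 9.68 and 8.96, and Nlrp3 7.68 and 6.68. In A of Myd88flox/flox; Tie2-Cre hosts Il13 was 10.58 and 8.96, Tnf 9.33 and 9.86, and Nlrp3 7.17 and 7.61. For each of these genes both single-deficient hosts overlapped double-deficient hosts, so the levels were not particular to double-deficient hosts.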
